A study of Mus musculus with 384 samples.

Results

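The 10 genes described here encode integrin chains and adhesion receptors of T cells. They were taken by name from a table of 23420 gene symbols and all 10 were found in it: the alpha chains Itgae, Itga1, Itga4, Itgal and Itgav, the beta chains Itgb1, Itgb2 and Itgb7, and the receptors Cd44 and Emb. Integrins are paired receptors of 1 alpha and 1 beta chain that hold a cell to matrix or to other cells. A chain reaches the surface only with a partner, so the RNA of 1 chain alone does not give a receptor. On T cells they are known for arrest on vessel walls, for contact with target cells and for retention in epithelia.

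Single T cells from B16F10 tumours, a transplanted mouse melanoma, were profiled by Smart-seq2, a full-length method without molecular identifiers. The tumours grew in C57BL/6 mice, labelled IL27raKO (knockout of Il27ra, the specific receptor chain for the cytokine IL-27) or wild type. The wells form 4 plates: CD4 cells of the knockout source, CD4 cells of the wild-type source, CD8 cells of the knockout source and CD8 cells of the wild-type source, with 94 single cells, 1 population library and 1 no-cell well on each. With 1 plate per genotype and cell type, genotype, mouse and plate cannot be told apart, and genotype differences have no replicate check and no test. Plates were assigned by their titles, although a treatment label speaks of CD8+ cells for the CD4 plates too. The labels give no age or sex and no number of mice.

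Values are FPKM, fragments scaled to transcript length and library size, and detection means 1 FPKM or more. Of the 94 cells on each plate, those with 1000 or more genes detected were used: 78 knockout and 74 wild-type CD4 cells, and 77 knockout and 72 wild-type CD8 cells. Their median number of detected genes was 2091, 2047, 2243 and 2530.5 in that order, and the population libraries held 9918 to 10848. Read depth is unknown, and intervals on shares are exact Clopper-Pearson 95% intervals that cover counting error only. Cd4 was detected in 91% and 89.2% of the CD4 cells, against 1.30% and 0% of the CD8 cells. Cd8a was detected in 0% and 2.70% of CD4 cells and in 81.8% and 84.7% of CD8 cells. Il27ra RNA was detected in 47.4% of knockout and 36.5% of wild-type CD4 cells and in 57.1% of knockout and 51.4% of wild-type CD8 cells. The population libraries held it at 133.4 FPKM in knockout against 244.6 FPKM in wild-type CD4, and 92.9 FPKM in knockout against 155.4 FPKM in wild-type CD8. The labels do not say which part of the gene is deleted, so this does not check them. RNA of other cell types was present: apart from Tyr and Cd8b1, a marker of another lineage was found in 20.5% of knockout and 28.4% of wild-type CD4 cells and in 16.9% of knockout and 25% of wild-type CD8 cells. Tyr, a pigment enzyme, was found in 97.4% to 100% of cells on the 4 plates. All 10 members were at 0 FPKM in the no-cell wells.

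Itgal and Itgb2 encode the chains of LFA-1, the integrin of T cell arrest and of contact with target cells, and were among the most frequent members on all 4 plates. Itgb2 (mm10 chromosome 10, 77530252 to 77565708) was detected in 76.9% of knockout and 77% of wild-type CD4 cells. In CD8 cells the shares were 81.8% in knockout and 76.4% in wild type. Itgal (chromosome 7, 127296260 to 127335138) was detected in 65.4% of knockout and 73% of wild-type CD4 cells, and in 79.2% of knockout and 80.6% of wild-type CD8 cells. The intervals overlap between all 4 plates for both genes. Itgb2 was also the highest member per transcript length in every population library, at 1059.6 and 909.8 FPKM in knockout and wild-type CD4 and 1028.8 and 1050.3 FPKM in knockout and wild-type CD8. Itgal held 447.7 and 526.8 FPKM in knockout and wild-type CD4 libraries and 443.7 and 376.6 FPKM in those of CD8.

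**Figure D1:**
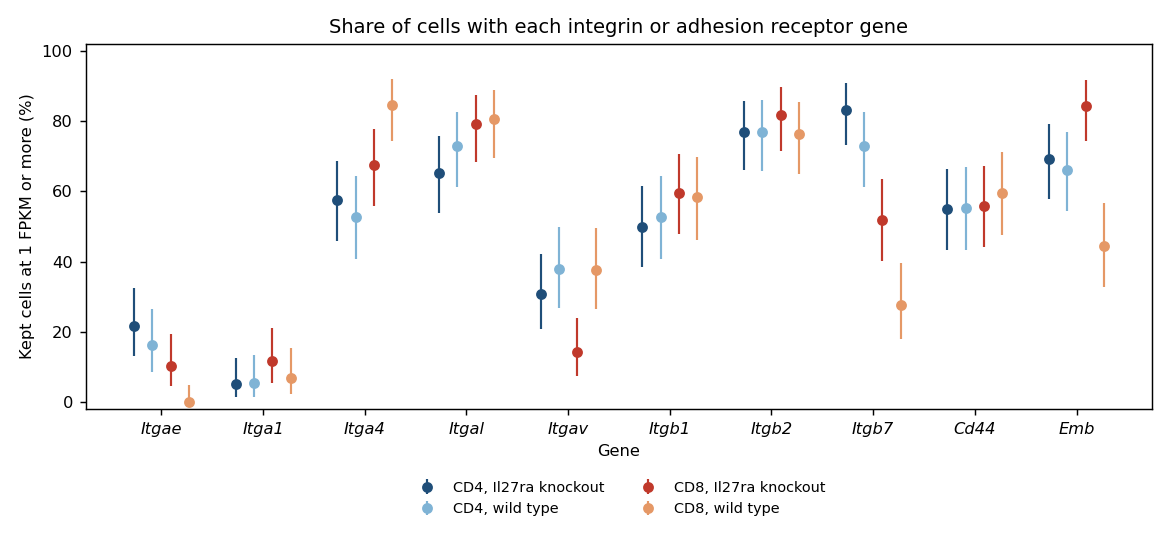
Share of kept cells (%) with each gene at 1 FPKM or more on the 4 plates, with points for the share and bars for the exact 95% interval. Itgb2 lies between 76.4% and 81.8% on all plates, whereas Itgb7 runs from 27.8% in wild-type CD8 cells to 83.3% in knockout CD4 cells.

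Itgae (chromosome 11, 73090583 to 73147446) encodes CD103, the alpha chain of an integrin that binds E-cadherin and marks many tissue-resident and regulatory T cells. RNA of Itgae was found in 0 cells of 1 plate. It was detected in 17 of 78 knockout CD4 cells (21.8%, interval 13.2 to 32.6) and 12 of 74 wild-type CD4 cells (16.2%, 8.67 to 26.6). Among CD8 cells it was found in 8 of 77 knockout cells (10.4%, 4.59 to 19.4) and in 0 of 72 wild-type cells, a count that allows a share of up to 4.99%. Cells with Itgae held much of it, with a median of 660.3 and 535.8 FPKM in detecting knockout and wild-type CD4 cells and 315.6 FPKM in detecting knockout CD8 cells. The population libraries held 219.5 FPKM in knockout against 41.3 FPKM in wild-type CD4, and 34.4 FPKM in knockout against 0.430 FPKM in wild-type CD8. The means over single cells were 145.4 FPKM in knockout and 98.1 FPKM in wild-type CD4, and 50.2 FPKM in knockout and 0 FPKM in wild-type CD8. In a population library, fewer cells with a gene and less RNA per cell cannot be told apart.

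Itgb7 (chromosome 15, 102215995 to 102231944) encodes the beta chain that pairs with CD103 and, in the gut-homing integrin, with the Itga4 chain. It was detected in 83.3% (73.2 to 90.8) of knockout and 73% (61.4 to 82.6) of wild-type CD4 cells, and in 51.9% (40.3 to 63.5) of knockout and 27.8% (17.9 to 39.6) of wild-type CD8 cells. Detecting cells again held much of it, with a median of 1038.7 and 772.9 FPKM in knockout and wild-type CD4 cells and 527.9 and 506.0 FPKM in knockout and wild-type CD8 cells. The wild-type CD8 share lay below the intervals of the other 3 plates. Population values were 456.7 and 421.9 FPKM in knockout and wild-type CD4 and 245.7 and 65.3 FPKM in knockout and wild-type CD8.

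Itga4 (chromosome 2, 79255426 to 79333123) encodes the alpha chain that pairs with Itgb1, for binding to VCAM1 and fibronectin, or with Itgb7, for homing to the gut. Its shares were 57.7% of knockout and 52.7% of wild-type CD4 cells, and 67.5% of knockout and 84.7% of wild-type CD8 cells. These shares are less certain than those of the other members. Of the 75 wells left out for few genes (median 240 detected genes), 32 held Itga4 at 1 FPKM or more (42.7%, 31.3 to 54.6), whereas each other member was found in 0 to 7 of them. At 10 FPKM or more, Itga4 was found in 46.2% of knockout and 37.8% of wild-type CD4 cells and in 53.2% of knockout and 69.4% of wild-type CD8 cells. The order of the plates held at that level. The source of the low values was not tested.

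Itgb1 (chromosome 8, 128685654 to 128733200), the common beta chain of matrix-binding integrins, was detected in 39 of 78 knockout and 39 of 74 wild-type CD4 cells and in 59.7% of knockout and 58.3% of wild-type CD8 cells. Itga1 (chromosome 13, 114953096 to 115101964), the alpha chain CD49a of a collagen-binding integrin, was the rarest member on both CD4 plates. It was detected in 4 of 78 knockout and 4 of 74 wild-type CD4 cells and in 9 of 77 knockout and 5 of 72 wild-type CD8 cells. Itgav (chromosome 2, 83724397 to 83806916), whose integrins bind vitronectin and latent TGF-beta, was detected in 30.8% of knockout and 37.8% of wild-type CD4 cells, and in 14.3% (7.35 to 24.1) of knockout and 37.5% (26.4 to 49.7) of wild-type CD8 cells. Its levels were low, with population values of 6.81 to 19.5 FPKM.

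Cd44 (chromosome 2, 102811141 to 102901665), the hyaluronan receptor of activated and memory T cells, had the narrowest range of shares. It was detected in 55.1% of knockout and 55.4% of wild-type CD4 cells and in 55.8% of knockout and 59.7% of wild-type CD8 cells. Emb (chromosome 13, 117208536 to 117274415) encodes embigin, a membrane protein that takes part in adhesion and serves as a partner of a monocarboxylate transporter. RNA of Emb was found in 69.2% of knockout and 66.2% of wild-type CD4 cells and in 84.4% of knockout and 44.4% of wild-type CD8 cells, and the wild-type CD8 interval (32.7 to 56.6) overlapped that of wild-type CD4 cells (54.3 to 76.8) alone. In median share over the 4 plates the members ran from Itgb2 (77%), Itgal (76.1%), Emb (67.7%), Itga4 (62.6%) and Itgb7 (62.5%) to Cd44 (55.6%), Itgb1 (55.5%), Itgav (34.1%), Itgae (13.3%) and Itga1 (6.17%). Neighbours in this order had ranges over the plates that overlap, except Itgb1 and Itgav.

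The proximal promoters of Emb and Itgb7, the members with the largest genotype differences in CD8 cells, are shown as the 250 bases before the RefSeq start (GRCm38.p6). Capitals mark matches to the core TCF motif CTTTGA (Tcf7 is of the TCF family) or the core RUNX motif TGTGGT, on either strand. The windows are chr13:117220323-117220572 on the plus strand for Emb and chr15:102231936-102232185 on the minus strand for Itgb7. The Emb window lies inside the gene span given above, which is from GENCODE and starts at 117208536. The RefSeq start used here is therefore not the start of that span, and bases before the GENCODE start are not shown.
Emb: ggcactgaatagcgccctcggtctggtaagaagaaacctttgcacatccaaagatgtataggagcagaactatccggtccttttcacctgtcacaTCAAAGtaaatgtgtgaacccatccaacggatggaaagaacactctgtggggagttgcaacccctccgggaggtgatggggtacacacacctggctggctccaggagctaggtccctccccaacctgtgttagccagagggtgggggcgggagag
Itgb7: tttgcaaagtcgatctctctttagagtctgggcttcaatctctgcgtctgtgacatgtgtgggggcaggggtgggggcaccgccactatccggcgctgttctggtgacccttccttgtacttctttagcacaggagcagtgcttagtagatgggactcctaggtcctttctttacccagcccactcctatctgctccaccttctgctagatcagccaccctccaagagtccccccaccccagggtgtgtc
Emb held 1 TCF match and Itgb7 held 0 matches to either motif. Of 32851 promoter windows, 13.8% held the TCF letters and 14% the RUNX letters, and a match is a description of letters only.

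**Figure D2:**
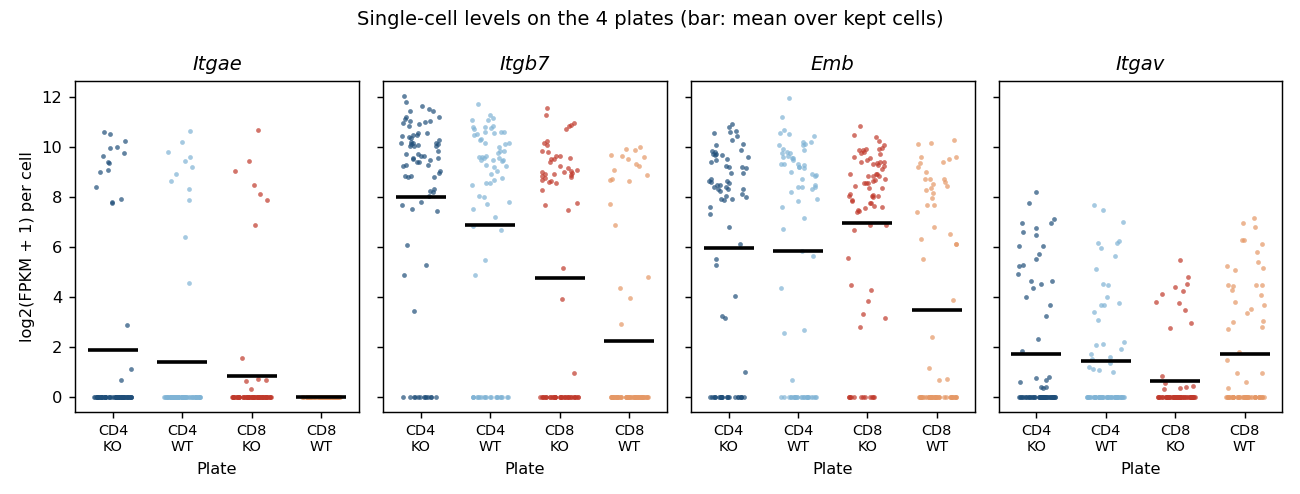
Level per kept cell, log2(FPKM + 1), of Itgae, Itgb7, Emb and Itgav on the 4 plates (KO, Il27ra knockout; WT, wild type); each point is a cell and the bar is the mean. The plate means of Itgb7 run from 2.24 in wild-type CD8 to 7.99 in knockout CD4 cells, and all wild-type CD8 cells lie at or near 0 for Itgae.

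A kept cell held a median of 5 of the 10 members on each plate, and none held 0. This number followed detected genes per cell to unequal degrees, with Spearman rho of 0.50 in knockout and 0.39 in wild-type CD4 cells and 0.10 in knockout and 0.70 in wild-type CD8 cells, given as a description over cells of 1 plate each.

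For chains that form 1 receptor, detection of both in the same cell was counted. Of cells with Itgae, its beta chain Itgb7 was found in 15 of 17 in knockout CD4, 11 of 12 in wild-type CD4 and 8 of 8 in knockout CD8. In cells without Itgae the Itgb7 shares were 82% in knockout CD4, 69.4% in wild-type CD4 and 46.4% in knockout CD8, so the CD8 share lay below the interval of the 8 cells with Itgae (63.1 to 100). Itgal and Itgb2 were found together in 52.6% of knockout and 56.8% of wild-type CD4 cells and in 67.5% of knockout and 68.1% of wild-type CD8 cells. The products of the single shares, 50.3% and 56.2% in CD4 and 64.8% and 61.5% in CD8 in the same order, lay within the intervals of these values. In knockout CD4 cells Itgav and Itgb1 were found together in 4 of 78 (5.13%, 1.41 to 12.6), below the product of 15.4%. The share with both and the product were 18.9% and 19.9% in wild-type CD4 cells, 9.09% and 8.53% in knockout CD8 cells and 26.4% and 21.9% in wild-type CD8 cells. The products take no account of depth per cell.

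Cells with Itga4 at 1 FPKM or more were split by the beta chain found beside it. They include 42 kept cells under 10 FPKM, low values whose source was not tested, and the split was not made at 10 FPKM or more. Of Itga4 cells, Itgb7 without Itgb1 was found in 26.7% (14.6 to 41.9) of knockout and 30.8% (17 to 47.6) of wild-type CD4 cells, against 17.3% (8.23 to 30.3) of knockout and 11.5% (4.74 to 22.2) of wild-type CD8 cells. Itgb1 without Itgb7 was found in 11.1% (3.71 to 24.1) and 15.4% (5.86 to 30.5) of knockout and wild-type CD4 cells, against 28.8% (17.1 to 43.1) and 39.3% (27.1 to 52.7) of knockout and wild-type CD8 cells. Both were found in 51.1% and 35.9% of knockout and wild-type CD4 cells and in 30.8% and 14.8% of knockout and wild-type CD8 cells. Some of these intervals overlap between plates. Over all cells of a plate, with or without Itga4, Itgb7 without Itgb1 was found in 42.3% and 36.5% of knockout and wild-type CD4 cells and in 18.2% and 9.72% of knockout and wild-type CD8 cells. Itgb1 without Itgb7 was found in 8.97% and 16.2% of all knockout and wild-type CD4 cells and in 26% and 40.3% of those of CD8, and both in 41% and 36.5% of CD4 and 33.8% and 18.1% of CD8 cells in the same order. Itgb7 alone was more frequent on the CD4 plates and Itgb1 alone on the CD8 plates over all cells as well, so this order is not particular to cells with Itga4.

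CD4 and CD8 cells were compared over the 4 plate means of log2(FPKM + 1), with limma and the source as a block. The plate titles hold a further label, the same on both CD8 plates and another on each CD4 plate, whose meaning is not given. Cell type cannot be told apart from this label or from the plates. Itgb7 and Itgae were higher in CD4 cells and 0 of 10 members were lower. Over the 8427 genes tested, 1.12% were called higher in CD4, 6.32% lower and 7.44% in either direction at adjusted p under 0.05. For Itgb7 the plate means were 7.99 and 6.88 in knockout and wild-type CD4 cells, against 4.75 and 2.24 in knockout and wild-type CD8 cells. The difference was 3.94 ± 0.58 log2 (SE, limma, adjusted p = 6.67e-09), and the plates did not overlap. For Itgae the means were 1.85 and 1.40 in knockout and wild-type CD4 cells, against 0.84 and 0.00 in knockout and wild-type CD8 cells. Its difference was 1.21 ± 0.31 log2 (SE, limma, adjusted p = 0.00558).

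The other 8 members did not pass this test. Itga4 differed by -1.18 ± 0.51 log2 (limma, adjusted p = 0.139) and Itgal by -0.83 ± 0.58 (limma, adjusted p = 0.413), CD4 minus CD8. The remaining 6 had adjusted p-values of 0.531 to 0.797, with differences of -0.55 (Itgb1), -0.33 (Itgb2), -0.19 (Itga1), 0.31 (Cd44), 0.40 (Itgav) and 0.67 (Emb) log2. With 1 residual degree of freedom, the spread was pooled over all genes, so these p-values do not measure the spread between mice, and an exact permutation test of 2 against 2 plates could not go below a two-sided p of 0.333. Fits that left out 1 plate had no source block, and the lone plate of a cell type was assumed to vary like the others. With all 4 plates and no block, Itgb7 kept its call (3.94, limma, adjusted p = 0.025) and Itgae did not (1.21, limma, adjusted p = 0.103). Without the knockout CD4 plate Itgb7 differed by 3.38 and Itgae by 0.98 log2. Itgae differed by 1.43 without the wild-type CD4 plate and by 0.79 without the wild-type CD8 plate. With the block, Itgae lost its call without cells holding RNA of another lineage (1.25, limma, adjusted p = 0.0947). In cells with 2000 or more genes the adjusted p was 0.0967 for Itgb7 (4.57) and 0.218 for Itgae (1.66). In the population libraries both were also higher in CD4, by 1.78 (Itgb7, adjusted p = 0.326) and 3.76 (Itgae, adjusted p = 0.299), where 0 genes were called and 1066 had an unadjusted p under 0.05.

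The call for Itgae depended on the cells with Foxp3, which encodes the defining factor of regulatory T cells. When CD4 cells with Foxp3 RNA were left out, Itgae differed by -0.21 ± 0.23 log2 (limma, adjusted p = 0.64), whereas Itgb7 still differed by 3.23 ± 0.64 (limma, adjusted p = 0.00662). Foxp3 RNA was found in 37 of 78 knockout and 27 of 74 wild-type CD4 cells.

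Within the CD4 plates, Itgae was concentrated in cells with Foxp3 RNA on both plates, and Itgb1 in cells without it. Itgae was detected in 16 of 37 cells with Foxp3 (43.2%, 27.1 to 60.5), against 1 of 41 without (2.44%, 0.0617 to 12.9), on the knockout plate. On the wild-type plate it was detected in 10 of 27 (37%, 19.4 to 57.6), against 2 of 47 (4.26%, 0.520 to 14.5). Itgb1 ran the other way, with 29.7% (15.9 to 47) of knockout cells with Foxp3 against 68.3% (51.9 to 81.9) of those without. On the wild-type plate Itgb1 was found in 22.2% (8.62 to 42.3) of cells with Foxp3, against 70.2% (55.1 to 82.7) of those without. All 4 of these pairs have intervals that do not overlap. Foxp3 RNA that was missed would place a regulatory T cell among those without it.

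Itgav was found in 43.2% (27.1 to 60.5) of cells with Foxp3 against 19.5% (8.82 to 34.9) without on the knockout plate, and in 63% (42.4 to 80.6) against 23.4% (12.3 to 38) on the wild-type plate. Itgb7 was found in 83.8% with and 82.9% without Foxp3 on the knockout plate, and on the wild-type plate in 96.3% (81 to 99.9) of cells with Foxp3 and 59.6% (44.3 to 73.6) of those without. Intervals did not overlap for 2 of the 9 members tested on the knockout plate and 4 of 9 on the wild-type plate. Of all genes tested, 1.34% and 1.86% had such intervals on the knockout and wild-type plates. Itgae reached the filter, 10% of a plate's kept cells, only through the cells with Foxp3 where it was frequent, so its part in these counts is no support. Cells with and without Foxp3 had medians of 2076 and 2095 genes on the knockout plate and 2316 and 1966 genes on the wild-type plate. In cells with 2000 or more genes, Itgae was found in 13 of 24 with and 0 of 23 without Foxp3 on the knockout plate, and in 7 of 19 (16.3 to 61.6) and 1 of 22 (0.115 to 22.8) on the wild-type plate, where the intervals overlap. Those of Itgb7 on the wild-type plate (74 to 99.9 with, 45.1 to 86.1 without Foxp3) then overlap too, whereas those of Itgb1 were apart on both plates. Without cells that held RNA of another lineage, Itgae was found in 46.4% of cells with Foxp3 against 2.94% without on the knockout plate, and in 43.8% against 5.41% on the wild-type plate. Itgb1 was then found in 32.1% with against 70.6% without Foxp3 on the knockout plate, and in 18.8% against 73% on the wild-type plate. The Itgav intervals on the wild-type plate then overlapped (41.3 to 89 with, 13.8 to 44.1 without Foxp3). In cells with 2000 or more genes they were apart (54.4 to 93.9 with, 7.82 to 45.4 without Foxp3).

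**Figure D3:**
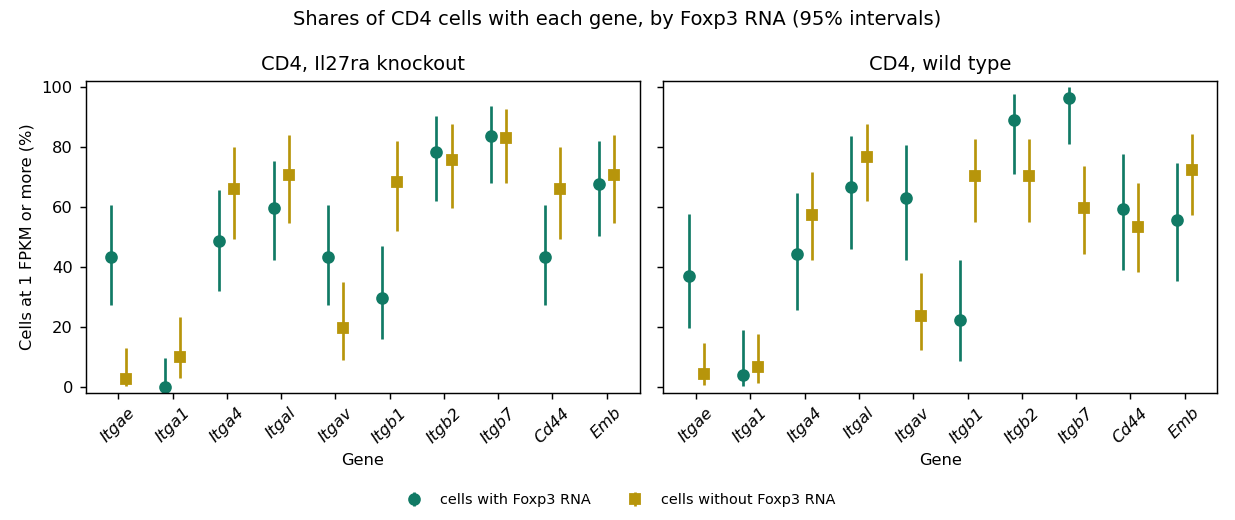
Share (%) of CD4 cells with each gene at 1 FPKM or more, in cells with and without Foxp3 RNA, for the knockout and wild-type plates; bars are exact 95% intervals. On both plates Itgae is found mostly in cells with Foxp3 and Itgb1 mostly in cells without it, with intervals apart.

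In CD8 cells, knockout against wild type, the members did not move as 1 group. Emb and Itgb7 were higher by over 1 log2 in the knockout plate and Itgav was lower by over 1 log2. Itgae and Itga1 passed the filter on low values through the knockout plate alone. Of the 8117 genes tested, 2.07% were higher by over 1 log2 and 9.19% lower, and the members' median difference was 0.16 against -0.22 over all genes. Emb averaged 6.97 ± 3.44 log2 in knockout and 3.47 ± 4.12 log2 in wild-type cells (SD over 77 and 72 cells), a difference of 3.50 that ranked 4 from the highest. Itgb7 averaged 4.75 ± 4.69 in knockout and 2.24 ± 3.82 in wild-type cells, a difference of 2.51 that ranked 13. Itgav averaged 0.61 ± 1.44 in knockout and 1.73 ± 2.36 in wild-type cells, a difference of -1.11 that ranked 580 from the lowest of 8117. The 1 lower member of 10 tested was near the 9.19% lower among all genes. The Itgav value lay within 1 log2 when each cell was scaled to the same sum (-0.95) or when plates were matched on detected genes (-0.84). It also did so with a pseudocount of 10, in cells with 500 or more genes and when centred on the median of all genes.

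The population libraries of CD8 cells had 6 members higher by over 1 log2 in knockout and 1 lower, where 11.1% of all genes tested were higher and 7.96% lower. Emb held 678.4 FPKM in knockout against 144.4 FPKM in wild type (2.22 log2), and Itgb7 245.7 against 65.3 FPKM (1.90 log2). Itgav held 6.81 against 18.7 FPKM (-1.34 log2). Emb, Itgb7 and Itgav thus differed in the same direction in cells and in population libraries. Itgb1 held 310.4 FPKM in the knockout library against 92.2 FPKM in wild type (1.74 log2; 0.73 in cells), and Cd44 313.2 against 146.3 FPKM (1.09 log2; -0.03 in cells). Itgae (4.63) and Itga1 (1.63) were the other 2. Summed myeloid markers in these libraries were 103.7 and 133.2 FPKM in knockout and wild type, and summed melanoma markers 8.49 and 56.7 FPKM. In the single cells the melanoma sum averaged 27.2 FPKM in knockout and 447.4 FPKM in wild type, and all 5 melanoma markers were found on both plates; of 8 myeloid markers, 4 in knockout and 2 in wild type were found in no cell. Their part in these differences was not tested. Leaving out cells with RNA of another lineage gave 3.23 for Emb, 3.20 for Itgb7 and -1.46 for Itgav.

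In CD4 cells, knockout against wild type, Itgb7 was the 1 member of 9 tested past 1 log2, and 0 were lower by that much. Of the 7063 genes tested, 2.53% were higher and 2.51% lower, and the members' median was 0.17 against -0.04 over all genes. Itgb7 averaged 7.99 ± 3.89 in knockout and 6.88 ± 4.39 in wild-type cells (SD over 78 and 74 cells), a difference of 1.11. The population libraries held it at 456.7 FPKM in knockout and 421.9 FPKM in wild type, a difference of 0.11 log2, and without cells that held RNA of another lineage the difference was 0.98. It was 2.23 among cells without Foxp3, where Itgb7 was detected in 34 of 41 knockout and 28 of 47 wild-type cells. Among cells with Foxp3 the order was the other way, with means of 8.15 in knockout and 9.07 in wild type and detection in 31 of 37 knockout and 26 of 27 wild-type cells. Itgal lay just short of the threshold at -0.99, with -0.23 in the population libraries. Itga1 was detected in under 10% of both plates and was not tested in cells.

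In the CD4 population libraries Itgae was the 1 of these 9 members past 1 log2, at 219.5 FPKM in knockout against 41.3 FPKM in wild type (2.38 log2). Itga1, left out by the filter on single cells, held 5.48 FPKM in knockout against 0.890 FPKM in wild type (1.78 log2). In those libraries 12.9% of all genes tested were higher and 13.4% lower by over 1 log2. For Itgae the single cells differed less, with a mean of 145.4 FPKM in knockout and 98.1 FPKM in wild type. Foxp3 itself held 961.0 FPKM in knockout and 966.7 FPKM in wild type. The summed myeloid markers were 4.01-fold as high in the knockout as in the wild-type library (29.2 FPKM), whereas their mean over single cells was 433.7 FPKM in knockout and 1311.9 FPKM in wild type, and the melanoma markers held 40.7 FPKM in knockout against 117.8 FPKM in wild type. In single cells 3 of 8 myeloid and 2 of 5 melanoma markers were in no knockout cell, and 0 of either list in no wild-type cell. Their part in the Itgae value was not tested.

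**Figure D4:**
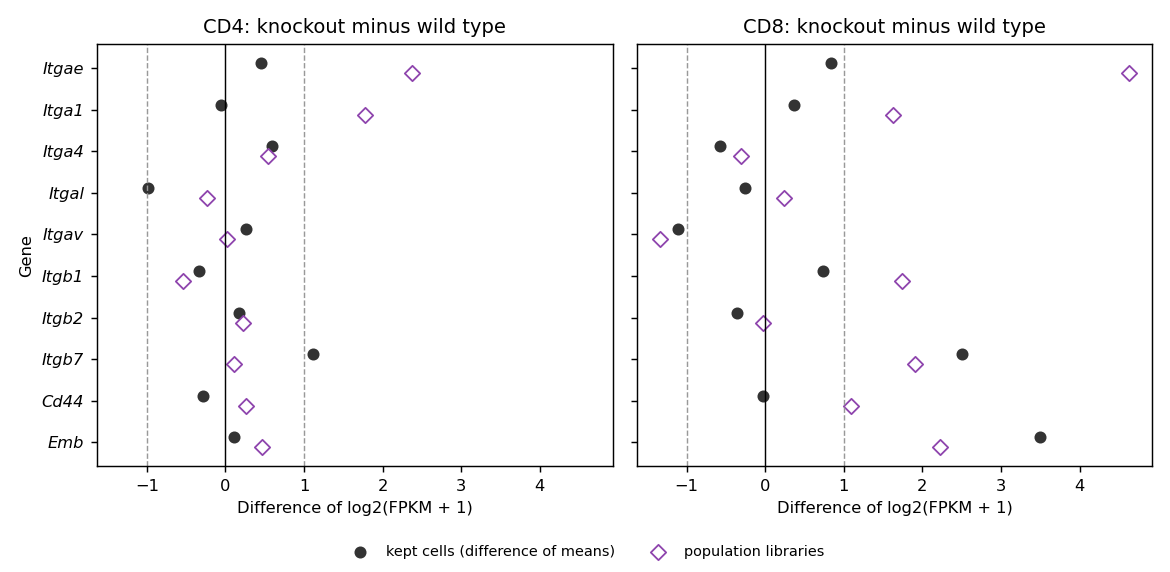
Knockout minus wild type on the log2(FPKM + 1) scale for each gene, CD4 left and CD8 right; filled points are differences of means over kept cells and open diamonds differences of the 2 population libraries. Dashed lines mark 1 log2; Emb and Itgb7 lie beyond it in CD8 by both measures, as does Itgav on the lower side.

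Cells were split by Tcf7, which encodes TCF-1, a factor of naive and stem-like T cells, and within both CD8 plates Emb was found more often in cells with it. Tcf7 RNA was found in 61% of knockout and 26.4% of wild-type CD8 cells. Emb was found in 45 of 47 cells with Tcf7 (95.7%, 85.5 to 99.5) against 20 of 30 without (66.7%, 47.2 to 82.7) on the knockout plate, and in 17 of 19 (89.5%, 66.9 to 98.7) against 15 of 53 (28.3%, 16.8 to 42.3) on the wild-type plate. The intervals did not overlap on either plate, for 1 of 10 members tested on the knockout plate and 2 of 8 on the wild-type plate, where 0.615% and 1.27% of all genes tested had such intervals. The other member was Itgb7 on the wild-type plate, at 63.2% (38.4 to 83.7) with against 15.1% (6.75 to 27.6) without Tcf7. On the knockout plate Itgb7 was found in 55.3% (40.1 to 69.8) with and 46.7% (28.3 to 65.7) without Tcf7. The Emb intervals on the knockout plate overlapped in cells with 2000 or more genes (79.8 to 99.3 with, 40.7 to 82.8 without Tcf7) and without cells that held RNA of another lineage (81.8 to 99.3 with, 49.8 to 86.2 without). The Itgb7 intervals on the wild-type plate overlapped when those cells were left out (23 to 77 with, 4.19 to 26.8 without).

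Among CD8 cells with Tcf7, Emb shares were close between the plates, at 95.7% in knockout and 89.5% in wild type. Among those without Tcf7, they were 66.7% in knockout and 28.3% in wild type, with intervals apart. Itgb7 in cells without Tcf7 was found in 46.7% of knockout and 15.1% of wild-type cells, also with intervals apart. The share of all genes with intervals apart between the plates, in cells without Tcf7, was not counted. Whether Emb and Itgb7 stand out from other genes there is therefore not known. The intervals cover counting error over cells only, and the genotype difference was not tested. In cells with 2000 or more genes, Emb without Tcf7 was found in 63.6% (40.7 to 82.8) of knockout and 30.8% (17 to 47.6) of wild-type cells, intervals that overlap. Itgb7 was then found in 11 of 22 knockout cells (28.2 to 71.8) and 15.4% (5.86 to 30.5) of wild-type cells, intervals that overlap too. In CD4 cells Emb was found in 77.8% with and 66.7% without Tcf7 on the knockout plate and in 76% and 61.2% on the wild-type plate, with intervals that overlap.

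**Figure D5:**
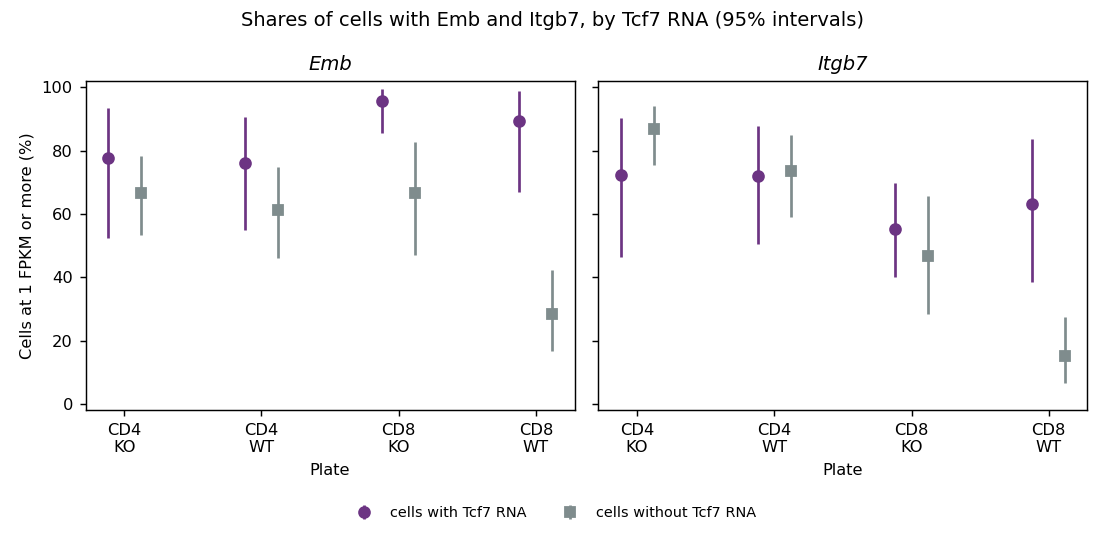
Share (%) of cells with Emb (left) and Itgb7 (right) at 1 FPKM or more, in cells with and without Tcf7 RNA on each plate; bars are exact 95% intervals. In CD8 cells without Tcf7, Emb is at 66.7% in knockout and 28.3% in wild type.

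CD8 cells were also split by Pdcd1, which encodes the inhibitory receptor PD-1, and Itgav and Itgb2 had intervals apart on the wild-type plate. On the wild-type CD8 plate Itgav was found in 24 of 45 cells with Pdcd1 (53.3%, 37.9 to 68.3) against 3 of 27 without (11.1%, 2.35 to 29.2). On the knockout CD8 plate it was found in 28% (12.1 to 49.4) against 7.69% (2.14 to 18.5). Itgb2 was found in 91.1% (78.8 to 97.5) against 51.9% (31.9 to 71.3) on the wild-type plate and in 92% against 76.9% on the knockout plate. These were 2 of 8 members tested on the wild-type plate, where 10.1% of all genes tested had such intervals. Cells with Pdcd1 there had a median of 2944 genes against 2071 without. In cells of 2000 or more genes on that plate Itgav was found in 57.1% (41 to 72.3) against 12.5% (1.55 to 38.3), and Itgb2 in 95.2% (83.8 to 99.4) against 68.8% (41.3 to 89), intervals that overlap.

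Itgb7 was found in 28% (12.1 to 49.4) of knockout CD8 cells with Pdcd1 against 63.5% (49 to 76.4) without. On the wild-type CD8 plate the shares were 15.6% (6.49 to 29.5) with and 48.1% (28.7 to 68.1) without Pdcd1, with intervals that overlap slightly on both plates. Among cells of 2000 or more genes, the wild-type shares were 16.7% (6.97 to 31.4) against 68.8% (41.3 to 89). The knockout shares were then 35.3% (14.2 to 61.7) against 60.5% (43.4 to 76), intervals that overlap. Without cells that held RNA of another lineage, the intervals overlap on both plates, with wild-type shares of 16.2% (6.19 to 32) against 35.3% (14.2 to 61.7). The share of all genes with intervals apart in these settings was not counted. With Cd69, a retention receptor, Itgb7 was found in 90.9% (75.7 to 98.1) of wild-type CD4 cells against 58.5% (42.1 to 73.7) without. Itgb7 was the 1 member of 9 with intervals apart on that plate, where 0.205% of all genes tested had them. On the other plates its intervals overlapped, at 86.4% with against 73.7% without Cd69 in knockout CD4. The shares were 53.8% against 48% in knockout CD8 and 40.7% against 20% in wild-type CD8. Over all 18 splits by Foxp3, Cd69, Tcf7, Pdcd1 or the cycling gene Mki67, 12 member values had intervals apart, 7.41% of those tested against 1.91% over all genes. These percentages do not compare like with like. Intervals separate more readily for genes found in many cells, as most members were, than for genes near the filter. Genes of like detection were not compared, so whether the members stand out is not known.

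Genes whose levels ran most like each member's were ranked by Spearman correlation within plates, given detected genes per cell, averaged over the 4 plates and over 5264 genes; cells of a plate share its preparation and depth, so this is a description. For Emb they were S1pr1 (0.47, plates 0.24 to 0.69), the receptor for exit from tissue into lymph and blood, Gramd3 (0.39) and Gm12505 (0.36). Emb was found in 40 of 47 cells with S1pr1 in knockout CD4 against 14 of 31 without, and in 28 of 39 against 21 of 35 in wild-type CD4. It was found in 40 of 41 against 25 of 36 in knockout CD8, and in 19 of 21 against 13 of 51 in wild-type CD8. Since S1pr1 was chosen for this likeness in the same cells, these counts restate it and are a description.

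For Itgav they were Tnfrsf9 (0.38), which encodes the costimulatory receptor 4-1BB, the inhibitory receptor gene Lag3 (0.28) and Osbpl3 (0.27). For Itgb1 they were the chemokine receptor gene Cxcr6 (0.35), Klrk1 (0.29), which encodes NKG2D, and Gm12505 (0.28). Itgal and Itgb2 shared Nkg7, a cytotoxic granule gene (0.31 and 0.28), and Actb (0.30 and 0.26), and the other genes were Id2 for Itgal (0.26) and Vim for Itgb2 (0.27). Values for Itgb7 (Kcnab2 0.26, Psmb8 0.26, Arhgdib 0.25), Cd44 (Cd3e 0.25, Dopey2 0.21, Eif3a 0.21) and Itga4 (Sox2ot 0.23, Glrx2 0.21, Sptbn1 0.20) were low. Itgae and Itga1 were detected in too few cells to rank. Among the members themselves the highest value was that of Itgal with Itgb2 (0.20, plates 0.03 to 0.26), and that of Itgb7 with Emb was 0.17.

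Other genes of adhesion were followed as lists. Of 25 measured genes of integrin activation and adaptors, 22 were tested between CD4 and CD8 and 0 were called. By genotype, 1 was higher and 5 lower by over 1 log2 in knockout CD8 cells, where 2.07% of all genes were higher and 9.19% lower, with Cytip, a cytohesin regulator, at 1.31 and Ilk (-1.56), Rap1a (-1.41), Fermt3 (-1.29), Cib1 (-1.25) and Rapgef1 (-1.16) lower. Fermt3 encodes kindlin-3, an activator of LFA-1, and Rap1a a GTPase that acts ahead of it. The list's median was -0.49 against -0.22 over all genes, and in the population libraries the same 5 lay between -0.59 and 0.88. In knockout CD4 cells 1 was higher and 2 lower, against 2.53% and 2.51% of all genes (median 0.05 against -0.04). Cyth1 was at 1.31 but at -0.22 in the population libraries. Tln1, which encodes the integrin-binding protein talin, was at -1.02 (-0.24) and Itgb1bp1 at -1.01 (-0.10).

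Of 14 other T cell adhesion receptors tested by genotype in CD8, 4 were higher and 3 lower in knockout, where 2.07% of all genes tested were higher and 9.19% lower. Amica1, a junctional adhesion receptor gene, was at 2.06 and was found in 45.5% of knockout against 22.2% of wild-type cells. Cd47 (1.49) and Nptn (1.31) were among the others that were higher, and Cd48 (-1.65), Bsg (-1.41) and Cd6 (-1.23) lower. In the population libraries Amica1 differed by 2.45, Nptn by 1.14, Cd47 by 0.39, Cd48 by -0.29, Bsg by -0.32 and Cd6 by -0.15 log2. In knockout CD4 cells 3 of 14 were higher, among them Cd2 (1.97; 0.24 in the population libraries) and Selplg (1.01; 0.10), and 0 lower, where 2.53% of all genes were higher and 2.51% lower. Between CD4 and CD8, Amica1 was lower in CD4 (-2.14 ± 0.37, limma, adjusted p = 2.61e-06) and the tetraspanin gene Cd81 higher (1.01 ± 0.29, limma, adjusted p = 0.0142), 2 of 16 tested. Amica1 passed the filter on low values through CD8 plates alone and Cd81 through CD4 plates alone, so each had to differ to be tested.

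Of 13 TGF-beta and residence factors tested in CD8, Cd69 (3.51) and S1pr1 (1.68) were higher and Cxcr6 (-1.65), Prdm1 (-1.27) and Runx3 (-1.18) lower in knockout, 2 and 3 against 2.07% and 9.19% of all genes. Prdm1 passed the filter on low values through the wild-type plate alone. The population libraries differed by 2.39 (Cd69), 1.90 (S1pr1), -0.78 (Cxcr6), -0.31 (Prdm1) and 0.40 (Runx3), the other way for Runx3. In knockout CD4 cells Cd69 (3.35; 1.23 in the population libraries) was higher and Tgfbr2 (-1.28; 0.01) lower, 1 each of 13 against 2.53% and 2.51% of all genes. Runx3, a CD8 lineage factor, was lower in CD4 than CD8 (-2.20 ± 0.47, limma, adjusted p = 0.000405), as was Cxcr6 (-2.14 ± 0.55, limma, adjusted p = 0.00537), 2 of 14 tested. Of 18 other integrin chains, 2 passed the filter on low values between cell types. Itgb3, which pairs with Itgav, was higher in CD4 (1.48 ± 0.38, limma, adjusted p = 0.00463), with detection in 33.3% of knockout and 37.8% of wild-type CD4 cells and 13% of knockout and 16.7% of wild-type CD8 cells. Of 11 ligand genes 3 were tested (Icam1, Icam2 and Lgals9), and 0 were called or past 1 log2.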

How the data were processed

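The authors deposited 1 table of TMM-normalized FPKM for 23420 symbols; the submitters' processing notes name Bowtie, RSEM and build mm10, without versions. Reads that match several genes are shared out by RSEM's model. Low values were tested for whole reads at the scale that gave each cell the most whole numbers, and 51.2% lay within 0.1 of one. Evenly spread values would give 20.0% at a fixed scale and more after such a search. The check therefore cannot decide whether the values are whole reads, and no count test was used. Differences are of means of log2(FPKM + 1) over kept cells, which understates changes of low genes and carries the share of detecting cells. Genes detected in 10% of kept cells of either plate (any plate for CD4 against CD8) were tested. limma 3.58.1 (R 4.3.3, lmFit, eBayes with trend) was fitted on 4 plate means with Benjamini-Hochberg adjustment. A check on simulated data used noise of the form that the fit assumes, so it does not test the p-values of these plates. Itga1 overlaps Pelo and Itga4 overlaps Cerkl, both found in few cells; whether reads were counted by strand is not stated. Gene coordinates are from GENCODE M21; RefSeq gave promoters for 7 of 10 members. Members, lists and the rule for named genes (the members, 3 like genes each, list genes past the threshold) were chosen with earlier results of these data known. Replicates of a cell type are 2 plates, which the labels do not tie to separate mice beyond the source name. Other settings are given in the closing section. A gene counted in the list of other adhesion receptors is not reported here.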

Additional observations from a re-analysis of the deposited data

Results flagged for a closer look

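Knockout minus wild type pointed opposite ways in the 2 cell types, in single cells and in population libraries alike, for 4 members. The share of all genes that meet this rule was not counted, so whether 4 is an unusual number is not known. The CD8 difference minus the CD4 difference in cells was -1.37 log2 for Itgav (-1.11 in CD8, 0.26 in CD4), -1.16 for Itga4 (-0.57 and 0.59), 1.07 for Itgb1 (0.73 and -0.34) and -0.53 for Itgb2 (-0.36 and 0.17). In the population libraries the differences were -1.34 in CD8 and 0.02 in CD4 for Itgav, -0.31 and 0.54 for Itga4, 1.74 and -0.54 for Itgb1 and -0.03 and 0.22 for Itgb2. In these libraries the values of Itgav in CD4 (0.02) and of Itgb2 in CD8 (-0.03) lay close to 0. In cells with 2000 or more genes the CD8 difference turned for Itgb1 (-0.17) and the CD4 difference for Itgav (-0.22) and Itgb2 (-0.40). The CD8 difference also turned for Itgb2 in cells with 500 or more genes (0.11) and for Itga4 with arithmetic means (0.04). With 1 plate per genotype and cell type, the difference between the cell types was not tested.

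Itga4 RNA was found in 32 of the 75 wells with under 1000 detected genes, a share above that of any other member there, and 15 of them held it at 10 FPKM or more. The no-cell wells held none. Of kept cells, 61 held Itga4 above 0 but under 1 FPKM and 43 held none.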

How the results depend on the processing

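In CD8, knockout against wild type, 3 members lay past 1 log2. The number was 6 with arithmetic means and 7 in the population libraries, where Cd44 turned to 1.09. In CD4 the number was 1, and it was 0 with a pseudocount of 10, 0 with arithmetic means, 2 with a pseudocount of 0.1 and 2 with cells scaled to the same sum. Emb and Itgb7 stayed past 1 log2 in CD8 in all 12 other settings.

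For CD4 against CD8, 2 members and 7.44% of the genes tested were called. No replicate block gave 1 member and 0.831%, a pseudocount of 10 gave 1 and 0.225%, cells with 2000 or more genes 0 and 0.119%, the 25% gene filter 1 and 3.44%, no gene filter 2 and 3.74%, and matching on detected genes 2 and 3.77%. Foxp3-negative CD4 cells gave 1 and 2.61%, the population libraries 0 and 0%, and leaving out cells with RNA of another lineage 1 and 0.890%. Leaving out 1 plate at a time gave 0 to 3 members and 0.320% to 13.7% of genes, and without the knockout CD8 plate Emb was called (2.42, limma, adjusted p = 0.021). Itgb7 stayed higher in CD4 in all 16 settings, and without 1 plate Itgae lay between 0.79 and 1.62. Directions turned for Itgae (-0.21), Itgav (-0.20) and Itgb1 (0.92) in Foxp3-negative cells, for Itgb2 with 2000 or more genes (0.14) and matched on genes (0.87), and for Itga4 (0.05) and Itgal (0.25) in the population libraries. Leaving out 1 plate, Itgav ran from -0.15 to 0.96 and Emb from -1.08 to 2.42. The cause was not tested. Besides these 9, 11 values for single members lost the call and 1 gained it; for genotype 4 fell under and 4 passed 1 log2 in CD4, and 5 and 9 in CD8.

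The planned removal of cells with RNA of another lineage could not be run, since Tyr marked nearly every cell. Cd8b1 was found in 23.1% of knockout and 25.7% of wild-type CD4 cells. The version without both genes was chosen after seeing the data. So were the Foxp3, Tcf7 and Pdcd1 splits in cells with 2000 or more genes or without cells holding RNA of another lineage. Cells, not mice, set the intervals.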
